A study of Mus musculus with 2 samples.

Results

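The 9 genes described here act at the lining of the urinary tract as secreted proteins, carriers, surface proteins and a lipid enzyme: Bpifb1, Clu, Wfdc2, Pigr, Trf, Psca, Plet1, Ly6d and Acer2. They were chosen with earlier results of these data known, so counts of members set beside the share of all genes are a description only. All 9 were found among the 32589 genes of the count tables. RNA of isolated nuclei from mouse ureters at postnatal day 0 was sequenced in 2 libraries. The DNp63cKO library came from 14 pooled mice that carried the Pax2-cre driver on 1 allele (Pax2-cre/+), floxed alleles of the DNp63 isoform (DNp63fl/fl) and the R26mTmG/+ reporter. The control library came from 13 pooled mice whose genotype label is wt. The labels do not say whether the controls carried the driver or the reporter. Pax2-cre acts in the nephric duct and its derivatives, which include the ureter epithelium. With 1 pooled library per group there is no replicate, so no test was possible and every interval given covers counting error only.

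Urothelium is a layered epithelium in which basal cells rest on the basement membrane and superficial cells face the urine and carry uroplakins. Such linings release antimicrobial and protease-inhibiting proteins, move antibodies to the lumen, bind free iron and display lipid-anchored proteins of the LY6 family on their surface. Trp63 encodes DNp63, the form of p63 that marks the basal layer of many stratified linings. Among the secreted members, Bpifb1 belongs to the family of bactericidal/permeability-increasing fold proteins of mucosal fluids, Clu encodes the extracellular chaperone clusterin and Wfdc2 encodes a secreted protein with whey acidic protein domains. Pigr is the receptor that carries polymeric immunoglobulins across epithelia, and Trf encodes transferrin, the iron carrier of body fluids. Psca and Ly6d are anchored surface proteins of the LY6 family, Plet1 is another anchored surface protein of epithelia, and Acer2 is a ceramidase of the Golgi that releases sphingosine.

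In GENCODE M21 (GRCm38, the assembly of mm10) all 9 are protein-coding. Bpifb1 lies on chr2:154190818-154220369 and Wfdc2 on chr2:164562413-164568510. Clu lies on chr14:65968483-65981547, Pigr on chr1:130826684-130852249, Plet1 on chr9:50494525-50505482 and Acer2 on chr4:86874396-86934822, all on the plus strand. Trf lies on chr9:103204001-103230444 on the minus strand and overlaps Gm20425 on the same strand. Psca lies on chr15:74714839-74717069 on the plus strand, and Ly6d on chr15:74762056-74763620 on the minus strand. Both are in a LY6 gene cluster, 44986 bases apart with 6 genes between them. Plet1 overlaps Plet1os on the other strand. Whether the counting used strand is not given in the sources used here, so reads of Plet1 and Plet1os may be assigned to either. Plet1os had 134 UMIs (unique molecular identifiers, which count captured RNA molecules) in DNp63cKO and 130 in control, against 3431 and 5043 for Plet1.

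The bases before the transcription start were read from RefSeq promoters (GRCm38.p6), which held 5 of the 9 members (Bpifb1, Wfdc2, Pigr, Plet1, Acer2); Clu, Trf, Psca and Ly6d are named only. The stretches shown are those of Bpifb1, Pigr, Plet1 and Acer2, which were all higher in superficial-like than in basal-like control nuclei (below), so that the letters can be set beside those values. Exons were trimmed off, which left little of the Wfdc2 window. All are on the plus strand, 5′ to 3′, and capitals mark matches to 6 motifs searched on both strands.
Bpifb1 first start, chr2:154190668-154190817: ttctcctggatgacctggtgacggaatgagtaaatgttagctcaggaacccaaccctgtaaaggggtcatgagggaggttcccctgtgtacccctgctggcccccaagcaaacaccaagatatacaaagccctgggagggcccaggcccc
Bpifb1 second start, chr2:154200230-154200378: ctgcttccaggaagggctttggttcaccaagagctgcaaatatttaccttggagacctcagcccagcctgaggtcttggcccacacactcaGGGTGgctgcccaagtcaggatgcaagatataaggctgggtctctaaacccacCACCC
Pigr, chr1:130826534-130826683: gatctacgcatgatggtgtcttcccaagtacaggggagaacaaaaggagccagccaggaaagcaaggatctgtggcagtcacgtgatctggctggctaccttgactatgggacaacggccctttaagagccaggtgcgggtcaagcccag
Plet1, chr9:50494375-50494524: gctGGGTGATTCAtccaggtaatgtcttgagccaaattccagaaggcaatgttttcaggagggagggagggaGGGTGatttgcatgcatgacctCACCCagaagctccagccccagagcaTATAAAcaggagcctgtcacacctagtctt
Acer2, chr4:86874264-86874395: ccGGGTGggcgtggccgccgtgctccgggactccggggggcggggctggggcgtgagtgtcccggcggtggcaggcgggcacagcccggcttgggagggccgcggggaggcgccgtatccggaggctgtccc

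The motifs were the TATA box TATAAA, the KLF-type box CACCC, the GATA core GATAA, the AP-1 element TGANTCA, the grainyhead element AACNNGTT and the paired CATG cores of a p53-family site. Plet1 held the most matches, a TATAAA at position -30 from the start, 3 CACCC boxes (GGGTG on the other strand) and a TGATTCA that overlaps the first of them. The second Bpifb1 start held 2 CACCC boxes, Acer2 held 1, and Pigr and the first Bpifb1 start held no match to any of the 6. Of 32851 RefSeq starts, 7.57% held TATAAA in the 150 bases before the start, 37.4% CACCC, 13.3% GATAA, 4.24% TGANTCA, 1.98% AACNNGTT and 0.286% the paired cores. The Acer2 stretch was 81.1% G and C, against 51.3% to 56.7% for the other 4 stretches. A match describes these letters only.

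The DNp63cKO library held 5528 nuclei and 9859451 UMIs, and the control library 9062 nuclei and 16063644 UMIs. Median depth was 1298 and 1124.5 UMIs per nucleus, and 58 cell barcodes occurred in both libraries. After filters, 5171 and 8374 nuclei were grouped into 17 clusters without using the 9 members, and 7 clusters were urothelium-like, with 2231 and 5102 nuclei. Cluster 11 (355 and 753 nuclei) was basal-like, led by Krt14 and Krt5. Cluster 3 (216 and 948 nuclei) had the highest score for superficial-layer markers, which include the uroplakins (0.41). It is called superficial-like, although no marker of its own was among its 10 leading genes. Cluster 6 (329 and 722 nuclei) was cycling, and clusters 5, 7 and 15 had no layer. The 10 leading genes of cluster 15 held 0 urothelial markers and included the mast cell protease genes Tpsb2, Tpsab1 and Cma1. No mast cell markers were listed, so the marker check could not weigh them, and its class as urothelium-like is uncertain. Cluster 4 (964 and 123 nuclei) was led by Spp1, Msln and Car2. Its superficial score of 0.33 was past the 0.25 needed for a layer. It failed the marker check, with 0 urothelial and 1 mesothelial marker (Msln) among its 10 leading genes. It is given by number, and may be a library rather than a cell type. Superficial-like DNp63cKO nuclei may thus lie in cluster 4 as well as in cluster 3. The basal keratin Krt5 was at 600 and 675 CPM (UMIs of a gene scaled to the same total of UMIs) in cluster 11. Trp63, counted over the whole gene and thus also outside the deleted part, was at 261.0 CPM in DNp63cKO against 351.8 CPM in control cluster 11, so its level does not check the genotype labels. Uroplakin RNA in fibroblast-like and smooth-muscle-like nuclei put free RNA, which enters wells without belonging to the nucleus, at 31.0% of the library average in DNp63cKO and 23.99% in control.

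The members were mainly urothelial RNAs. Of all Bpifb1 UMIs, 84.3% in DNp63cKO and 93.6% in control lay in urothelium-like nuclei. The shares were 86.1% and 94.4% for Clu, 80.5% and 84.8% for Wfdc2, and 83.6% and 92.3% for Pigr. For the surface proteins they were 82.0% and 90.9% for Psca, 81.3% and 91.5% for Plet1, and 84.7% and 85.2% for Ly6d. Acer2 had 78.9% and 92.0% of its UMIs there. Trf was the least urothelial member, with 61.6% and 82.0%. In every member the urothelial share was lower in the DNp63cKO library, where urothelium-like nuclei were also a smaller share of all nuclei. Such shares also rise with the number and depth of urothelium-like nuclei. Scaled to total UMIs, Trf was at 145 and 236 CPM in urothelium-like nuclei and 80.1 and 98.5 CPM in all others. Ly6d was at 492 and 1189 CPM in urothelium-like nuclei and 78.6 and 391 CPM in all others.

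Fibroblast-like nuclei show how much of each gene free RNA carries into cells that should lack it. There, the Bpifb1 level was 48.5 CPM with DNp63cKO and 94.2 CPM with control nuclei, against 363 and 532 CPM in urothelium-like nuclei. Ly6d stood at 88.6 and 339 CPM, against 492 and 1189 CPM. Acer2 stood at 509 and 439 CPM, against 2309 and 2374 CPM. The genotype with the lower urothelial level of Bpifb1 and Ly6d also had the lower level in fibroblast-like nuclei, and the part of free RNA in those differences was examined only by subtracting an estimate of it.

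**Figure D1:**
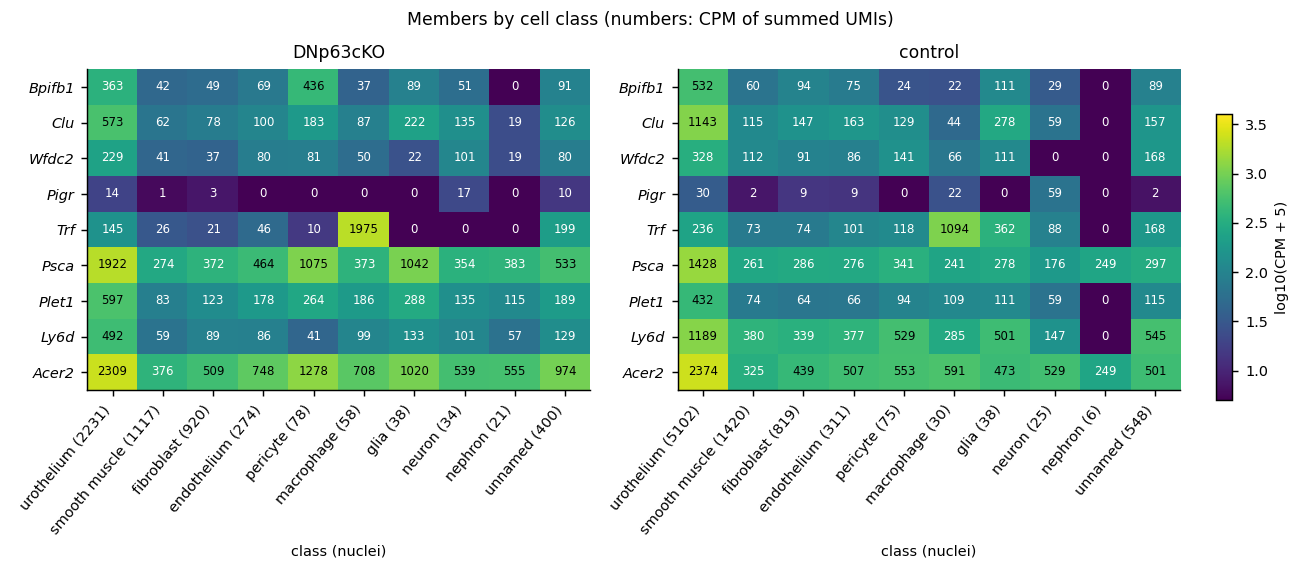
Heat map of the level of each member (rows) in each cell class (columns, with the number of nuclei) of the DNp63cKO and the control library; printed numbers are CPM of summed UMIs, and colour is log10(CPM + 5). Most members have their highest level in urothelium-like nuclei, and Trf is highest in macrophage-like nuclei at 1975 and 1094.5 CPM.

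Trf had sources outside the urothelium. Macrophage-like nuclei, which recycle iron, carried Trf at 1975 CPM in DNp63cKO (159 UMIs) and 1094.5 CPM in control (50 UMIs), and 25 of 58 and 12 of 30 such nuclei had a Trf UMI. They made up 1.12% and 0.358% of all nuclei, and held 15.9% and 1.87% of the Trf UMIs of each library. A further 96 Trf UMIs (9.61%) in DNp63cKO came from 4 nuclei with 20 or more UMIs of the liver genes Alb, Ahsg, Afp, Apoa1 and Ttr, of which the control had 0. Cluster 8, left unnamed and led by Ahsg and Alb, had Trf at 199 and 168 CPM. A high level in a small class could rest on a few nuclei: in pericyte-like DNp63cKO nuclei, Bpifb1 was at 436 CPM, but 30 of its 43 UMIs were in 1 nucleus.

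Within the urothelium the members formed an upper and a lower set. In control, Bpifb1 was at 1128 CPM in superficial-like cluster 3 and 80.1 CPM in basal-like cluster 11, a difference of 3.73 on the log2 scale (3.55 to 4.09; log2 ratios here use CPM + 5, and the intervals leave out the 5). Clu differed by 3.97, Acer2 by 3.42, Psca by 3.22, Pigr by 2.62 and Plet1 by 1.57, all higher in cluster 3. The basal-like control levels of 4 of them were near those of fibroblast-like nuclei: Bpifb1 at 80.1 and 94.2 CPM, Clu at 150 and 147 CPM, Psca at 298 and 286 CPM and Acer2 at 394 and 439 CPM. With free RNA subtracted, which leaves little in basal-like nuclei, the control differences became 8.10 for Bpifb1, 9.21 for Clu, 5.54 for Psca and 9.99 for Acer2, so their sizes depend on that step. Trf was lower in cluster 3 than in cluster 11 by a log2 value of -2.49 and Wfdc2 by -0.94. Ly6d was nearly level, at 1317 and 1549.7 CPM, with a log2 difference of -0.23 (-0.31 to -0.16). Thus 6 members were past 1.5-fold higher in control superficial-like nuclei and 2 were lower, where 10.2% of 12360 genes were higher and 21.4% lower. Calls throughout need 1.5-fold and 20 UMIs. Some of these differences were not particular to the superficial-like nuclei. Control cluster 5, with a superficial score of -0.34 and no layer, differed from cluster 11 by 3.04 for Pigr and 3.32 for Acer2. It differed by -3.14 for Trf, -1.83 for Wfdc2 and -1.59 for Ly6d. Its differences for Bpifb1 (1.63), Clu (1.95), Psca (1.90) and Plet1 (0.52) were smaller than those of cluster 3.

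In DNp63cKO each member differed between the layers in the same direction as in control, by other amounts. Bpifb1 was at 717 CPM in cluster 3 and 76.7 CPM in cluster 11 (log2 3.14), Acer2 differed by 2.99, and Psca was at 3212 and 489 CPM. Clu differed by 1.98 and Plet1 by 0.86. Pigr, at 17 UMIs in cluster 3 and 1 in cluster 11, had too few to be called. Wfdc2 (-1.36) and Trf (-3.53) were lower in cluster 3. Ly6d was at 219 CPM in cluster 3 and 1259.5 CPM in cluster 11, a log2 difference of -2.50 (-2.81 to -2.25). Cycling cluster 6 (996 CPM) and cluster 7 (891 CPM) stood nearer the basal-like level, and cluster 11 held 31.3% of the Ly6d UMIs of this library. The calls were 5 higher, beside 13.9% of 9451 genes, and 3 lower, beside 22.4%.

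**Figure D2:**
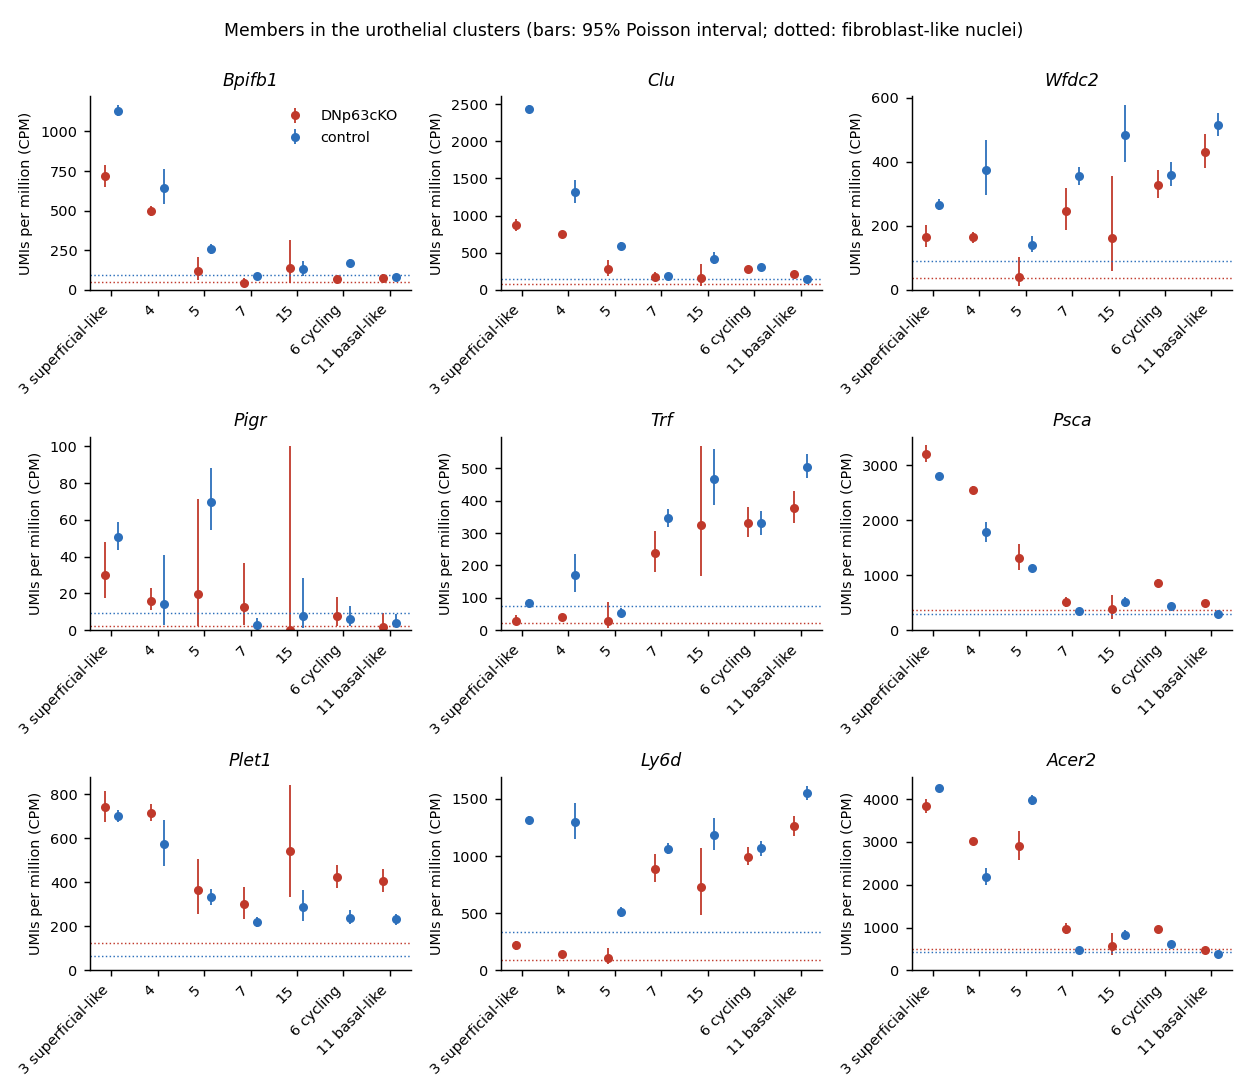
Level of each member (CPM, linear axis, its own scale in each panel) in the 7 urothelium-like clusters of the DNp63cKO and the control library, with 95% Poisson intervals; dotted lines give the level in fibroblast-like nuclei of the same library. Bpifb1, Clu, Psca and Acer2 are high in cluster 3 and low in cluster 11 in both libraries, while Ly6d in cluster 3 is at 1317 CPM in control and 219 CPM in DNp63cKO.

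Against control, superficial-like DNp63cKO nuclei had 6 of the 9 members past 1.5-fold lower (Bpifb1, Clu, Wfdc2, Pigr, Trf, Ly6d) and 0 higher. Over 11716 genes tested there, 8.97% were lower and 9.56% higher. The median log2 ratio was -0.67 for the members and 0.03 for all genes. Basal-like DNp63cKO nuclei had 2 of 8 members tested higher (Psca, Plet1) and 0 lower, beside 6.6% of 10932 genes higher and 8.02% lower, with a median of 0.11 against -0.01. Cluster 4 had 0 higher and 4 lower (Clu, Wfdc2, Trf, Ly6d), beside 17.8% of 10886 genes higher and 12% lower. Cluster 5 had 6 of 9 lower, beside 23.5% of genes, and 0 higher, beside 13.9%. Cycling cluster 6 had 1 of 8 lower (8.8% of genes) and 3 higher (7.27%), and cluster 7 had 1 of 8 lower (14.2%) and 1 higher (10.6%). Cluster 15, with 34 and 223 nuclei, had 3 of 8 lower (29.7%) and 1 higher (17%). In cluster 3 the median depth was 2226.5 UMIs in DNp63cKO and 3258 in control. With each nucleus thinned to 700 UMIs, 5 members were past 1.5-fold lower there. These were Clu (-1.47), Wfdc2 (-0.68), Pigr (-0.83), Trf (-1.74) and Ly6d (-2.51), and Bpifb1 was inside 1.5-fold (-0.26). The part of depth in the cluster 3 ratios was not tested otherwise.

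Ly6d, a LY6-family surface protein used as a marker of squamous and lymphoid lineages, had the lowest ratio of the members in clusters 3, 4 and 5. In cluster 3 it was at 219 CPM in DNp63cKO (125 UMIs) and 1317 CPM in control (4742 UMIs), a log2 ratio of -2.56 (-2.85 to -2.33). Only 0.0256% of the genes tested there had a lower ratio. Cluster 4 gave 146 and 1301 CPM (-3.11, -3.39 to -2.91), and cluster 5 gave 109 and 512 CPM (-2.18). The ratios were nearer 0 in cluster 7, at 891 and 1064 CPM (-0.25), in cycling cluster 6, at 996 and 1067 CPM (-0.10), and in basal-like cluster 11, at 1259.5 and 1549.7 CPM (-0.30, -0.42 to -0.18). Ly6d was thus lower in all 7 urothelium-like clusters, and past 1.5-fold in clusters 3, 4, 5 and 15.

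The same contrast showed per nucleus. Of DNp63cKO cluster 3 nuclei, 162 of 216 (75.0%) had no Ly6d UMI, against 100 of 948 (10.6%) in control. Nuclei with 10 or more Ly6d UMIs numbered 1 and 130. After thinning each nucleus to 700 UMIs, the share with a Ly6d UMI was 10.3% (6.56 to 15.2) in DNp63cKO and 55.8% (52.6 to 59.0) in control, with 25.0% and 89.5% unthinned. In cluster 11 the thinned shares were 49.7% and 56.4%. Fibroblast-like nuclei, at median depths of 1033 and 818 UMIs, had thinned shares of 5.9% and 18.4%, so the DNp63cKO share in cluster 4, 7.63%, was close to that background, and that in control cluster 4, 51.4%, was not.

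**Figure D3:**
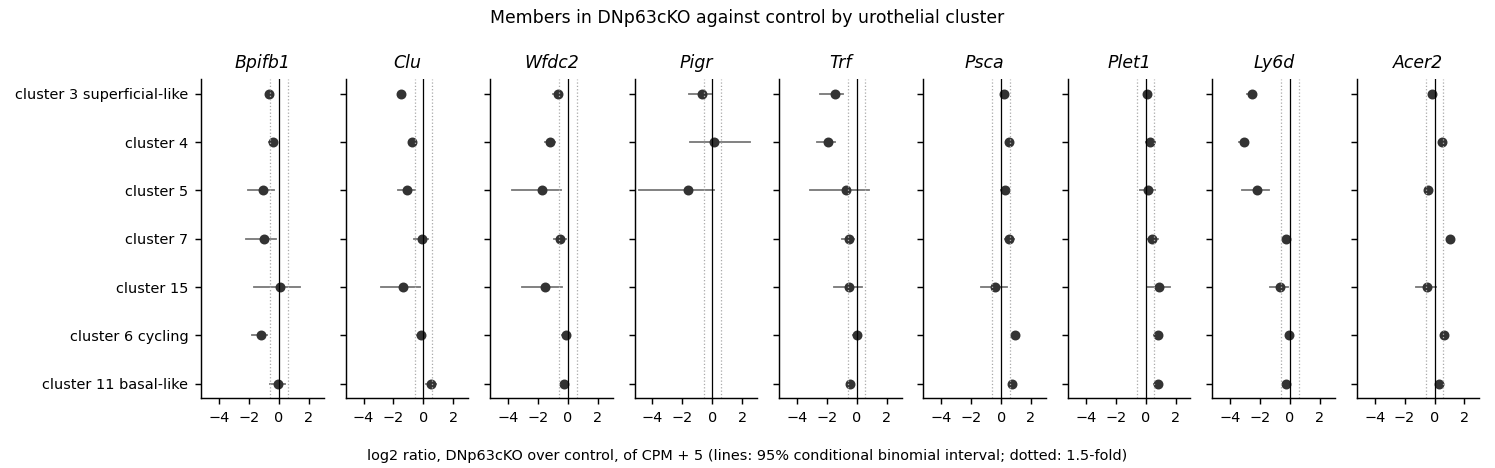
Log2 ratio of DNp63cKO over control (CPM + 5) of each member in the urothelium-like clusters where it had 20 or more UMIs, with 95% conditional binomial intervals; dotted lines mark 1.5-fold. Ly6d is at -2.56 in cluster 3, -3.11 in cluster 4 and -0.30 in cluster 11, and Plet1 is above 0 in all 7 clusters.

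Psca, the other LY6-family member, did not follow Ly6d. In cluster 3 it was at 3212 CPM in DNp63cKO against 2811 CPM in control, a log2 ratio of 0.19 (0.12 to 0.26), inside 1.5-fold. Cluster 4 gave 2553 and 1780 CPM (0.52). In cluster 11 Psca was higher, at 489 and 298 CPM (0.71, 0.50 to 0.93), and in cluster 6 at 853 and 440 CPM (0.95, 0.77 to 1.14). The cluster 11 values stood near those of fibroblast-like nuclei, 372 and 286 CPM, and the thinned shares of nuclei with a UMI, 24.6% and 18.9%, were near the 19.9% and 17.3% there. The cluster 11 ratio was inside 1.5-fold on thinned counts (0.43) and was -0.16 in nuclei with Y-linked and no Xist UMIs. In cluster 15 alone of the 7, Psca was lower in DNp63cKO, by counts of 14 and 128 UMIs.

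Plet1, an anchored surface protein of placental and epithelial progenitors, was higher in DNp63cKO in all 7 clusters. The ratio was past 1.5-fold in cluster 11, at 406 and 232 CPM (0.80, 0.57 to 1.05), in cluster 6, at 424 and 240 CPM (0.81), and in cluster 15 on 20 and 73 UMIs. In cluster 3 the levels of 742 and 699 CPM differed by 0.09 (-0.07 to 0.24), an interval that includes 0. The thinned share of basal-like nuclei with a Plet1 UMI was 24.0% in DNp63cKO and 13.5% in control (43.7% and 29.3% unthinned). In fibroblast-like nuclei the thinned shares were 6.47% and 3.19%. Plet1 was also higher in DNp63cKO over all nuclei outside the urothelium-like clusters, at 122 and 76.6 CPM (0.64, 0.48 to 0.86). Its ratio was 0.91 in fibroblast-like nuclei (123 and 63.6 CPM) and 1.36 in endothelium-like nuclei, but 0.17 in the smooth muscle class. Psca (0.45) and Acer2 (0.48) were also higher in DNp63cKO outside the urothelium-like clusters, inside 1.5-fold, while 6 of the 9 members were lower there. Free RNA was put at 31% of the library average in DNp63cKO and 23.99% in control. Higher Plet1 counts were thus not limited to urothelium-like nuclei. The part of free RNA in the counts outside them, and the cause of the rise, were not tested.

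**Figure D4:**
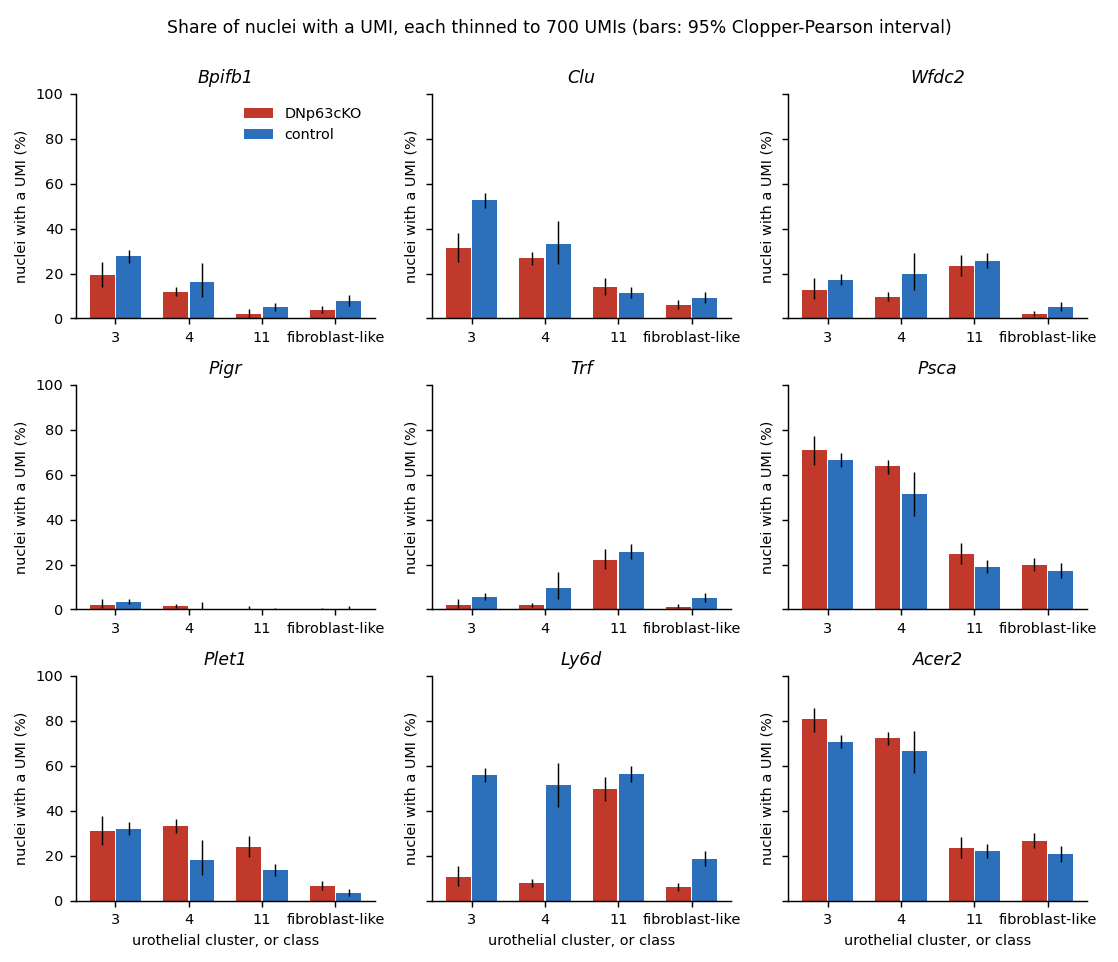
Share of nuclei (%) with at least 1 UMI of each member after thinning every nucleus to 700 UMIs, with 95% Clopper-Pearson intervals, in superficial-like cluster 3, cluster 4, basal-like cluster 11 and fibroblast-like nuclei of both libraries. Ly6d shares in cluster 3 are 10.3% in DNp63cKO and 55.8% in control.

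Clusterin (Clu) had its highest urothelial level in control cluster 3. It was at 869.7 CPM there in DNp63cKO (496 UMIs) and 2432 CPM in control (8757 UMIs), a log2 ratio of -1.48 (-1.62 to -1.35). Cluster 4 gave 759 and 1315 CPM (-0.79, -0.98 to -0.60). Basal-like nuclei went the other way, at 217 and 150 CPM, with a ratio of 0.52 (0.21 to 0.85) that is inside 1.5-fold. The control level there was that of fibroblast-like nuclei (147 CPM, against 78.4 CPM in DNp63cKO), and the ratio was 5.16 with free RNA subtracted. In cycling cluster 6 the levels were 276 and 309 CPM (-0.16). Nuclei with 10 or more Clu UMIs made up 5.56% of cluster 3 in DNp63cKO (12 of 216) and 30.1% in control (285 of 948), and the highest single nucleus held 32 and 125 UMIs. Thinned to 700 UMIs, 31.3% and 52.5% of cluster 3 nuclei had a Clu UMI, against 53.7% and 75.2% unthinned and 6.04% and 9.19% in thinned fibroblast-like nuclei.

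Bpifb1 molecules were concentrated in few nuclei. In DNp63cKO, 33 nuclei (0.638% of all) held 50% or more of its UMIs, and in control 87 nuclei (1.04%). In cluster 3 it was at 717 CPM in DNp63cKO against 1128 CPM in control, a log2 ratio of -0.65 (-0.80 to -0.51). Cluster 4, which held 55.4% of the DNp63cKO and 2.6% of the control Bpifb1 UMIs, gave 497 and 643 CPM (-0.37), inside 1.5-fold. Cycling cluster 6 gave 69.8 and 169 CPM (-1.22), and cluster 11 gave 76.7 and 80.1 CPM (-0.06, -0.58 to 0.44). Those basal-like levels lie near the 48.5 and 94.2 CPM of fibroblast-like nuclei.

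High-Bpifb1 nuclei were a smaller part of cluster 3 in DNp63cKO. Nuclei with 10 or more Bpifb1 UMIs numbered 12 of 216 (5.56%) and 123 of 948 (13.0%), and those with none 71.3% and 49.0%. The highest nucleus in cluster 3 held 58 UMIs in DNp63cKO and 78 in control, and in DNp63cKO cluster 4 it held 93. After thinning, 19.2% (14.1 to 25.1) and 27.7% (24.9 to 30.7) of cluster 3 nuclei had a Bpifb1 UMI (28.7% and 51.1% unthinned). These intervals just overlap. The cluster 3 call for Bpifb1 was lost on thinned counts (-0.26), as a mean over nuclei (-0.49) and with free RNA subtracted (-0.52). It was also lost in nuclei with Y-linked and no Xist UMIs (-0.46). With the members kept in the clustering, the superficial-like cluster held other nuclei (260 and 1305) and gave -0.10.

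In control, nuclei with Bpifb1 more often held 4 of the other upper-layer members. Among thinned control cluster 3 nuclei, Clu had a UMI in 74.4% of the 262 nuclei with Bpifb1 and in 44.2% of the 684 without. Psca was found in 84.4% and 59.9%, Acer2 in 86.3% and 64.8%, and Plet1 in 41.6% and 28.2%. Pigr (3.44% and 3.36%) and Ly6d (57.6% and 55.1%) were close, and Wfdc2 went the other way, in 9.92% and 19.7%. In DNp63cKO, with 41 and 173 nuclei, Clu was found in 43.9% and 28.3% and Psca in 82.9% and 68.2%, with intervals that overlap, while Acer2 (82.9% and 80.3%) and Plet1 (31.7% and 30.6%) were close. The nuclei of a library share their source, so these shares describe 2 libraries.

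Wfdc2 was higher in the lower layers and lower in DNp63cKO in all 7 clusters. It was past 1.5-fold in cluster 3, at 165 and 266 CPM (-0.67, -1.01 to -0.38), in cluster 4, at 164 and 376 CPM (-1.17), in cluster 5, at 39.6 and 142 CPM on 4 and 142 UMIs, and in cluster 15, on 6 and 122 UMIs. The cluster 3 ratio was inside 1.5-fold with free RNA subtracted (-0.58). So were the ratios of the superficial-like clusters found with the members kept in the clustering (-0.56) and at Leiden resolution 1.5 (-0.20). Basal-like nuclei gave 431 and 516 CPM (-0.26, -0.47 to -0.06), and cluster 6 gave 329 and 360 CPM (-0.13). Cluster 11 had the highest Wfdc2 level of the 7 clusters in DNp63cKO, and in control it stood beside cluster 15 (483 CPM).

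Trf also belonged to the lower layers. Basal-like nuclei gave 377 CPM in DNp63cKO and 505 CPM in control (-0.42, -0.64 to -0.21), and cycling nuclei 332 and 330 CPM (0.01). The superficial-like level was 28.1 CPM (16 UMIs) against 85.5 CPM (308 UMIs), a ratio of -1.45 (-2.43 to -0.89), and in cluster 4 it was 40.1 against 169 CPM (-1.95). Fibroblast-like nuclei had 21.3 and 74.2 CPM, so both cluster 3 levels lie near those of free RNA. At resolution 0.5 the superficial-like cluster held other nuclei than cluster 3 (1267 and 1780) and gave a ratio of -0.32.

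Pigr was the rarest member, with 73 UMIs in DNp63cKO and 298 in control. In cluster 3 it was at 29.8 CPM (17 UMIs) and 50.8 CPM (183 UMIs), a ratio of -0.68 with a wide interval (-1.58 to -0.05). The ratio was -0.15 under a stricter filter on nuclei, -0.55 with free RNA subtracted and -0.08 in nuclei with Y-linked and no Xist UMIs. The superficial-like cluster found at resolution 1.5 gave -0.48. The other cluster with a control level of this size was cluster 5, at 19.8 CPM on 2 UMIs and 69.9 CPM on 70 UMIs. Basal-like nuclei had 1 and 6 Pigr UMIs, too few to compare. No gene of the immunoglobulin group listed beside it had 20 UMIs in urothelium-like nuclei.

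Acer2, which releases sphingosine from ceramide, was close between the libraries in cluster 3, at 3831 and 4254 CPM (-0.15, -0.22 to -0.09). Cluster 4 gave 3015 and 2179 CPM (0.47) and cluster 5 gave 2910 and 3982 CPM (-0.45), both inside 1.5-fold. Acer2 was past 1.5-fold higher in cluster 6, at 968 and 619 CPM (0.64, 0.48 to 0.81), and in cluster 7, at 975 and 479 CPM (1.02, 0.81 to 1.24). The basal-like levels of 478 and 394 CPM (0.28) lie near the 509 and 439 CPM of fibroblast-like nuclei.

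Pooled over all urothelium-like nuclei, 4 of 9 members were lower (Clu -0.99, Pigr -0.84, Trf -0.69, Ly6d -1.26) and 0 higher, beside 2.88% of 14890 genes lower and 3.6% higher. Bpifb1 (-0.55), Wfdc2 (-0.51), Psca (0.43), Plet1 (0.46) and Acer2 (-0.04) were inside 1.5-fold. The pool mixes clusters whose nuclei fall in different shares in the 2 libraries, and it depends on cluster 4. The pooled Clu ratio was inside 1.5-fold with the stricter filter on nuclei (-0.48), as a mean over nuclei (-0.38) and thinned (-0.49), and that of Pigr as a mean over nuclei (-0.53) and thinned (-0.31). For Trf this held with clusters weighted as in control (-0.51), at resolutions 0.5 (-0.50) and 1.5 (-0.45), with the members kept in the clustering (-0.48) and in nuclei with Y-linked and no Xist UMIs (-0.19). Other members passed 1.5-fold in some runs. Psca was higher with the stricter filter (0.64), as a mean over nuclei (0.82) and thinned (0.76). Plet1 was higher as a mean over nuclei (0.70), thinned (0.72), with free RNA subtracted (0.59) and in nuclei with Y-linked and no Xist UMIs (0.66). Wfdc2 was lower thinned (-0.62). Bpifb1 was lower with clusters weighted as in control (-0.66) and in nuclei with Y-linked and no Xist UMIs (-1.06). Without cluster 4 Bpifb1 was at -1.13, Clu at -1.50, Trf at 0.02, Ly6d at -0.54 and Acer2 at -0.52. A coarse epithelial cluster of 7575 nuclei, which held 7317 of the 7333 urothelium-like nuclei and passed the marker check, also gave 4 lower and 0 higher, but with Bpifb1 (-0.62) past 1.5-fold in place of Trf (-0.55), and Ly6d at -1.34.

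The genes most like each member are given as a description. Likeness is Pearson's r of log2(CPM + 5) over 13 points, each a urothelium-like cluster in 1 library, among 9781 genes. The points share libraries and depth, so r describes them only. Bpifb1 was most like Scap (0.97), Clu (0.95) and Por (0.95), and Clu most like Scap (0.96), H2-K1 (0.96) and Myh14 (0.95). Psca was most like the uroplakin Upk2 (0.99), followed by Degs2 and Krt18 (both 0.97). Acer2 was closest to Hopx (0.99), Plcd1 (0.98) and the uroplakin Upk1b (0.98), and Plet1 to Sprr1a (0.97), Fam174b (0.95) and Psca (0.93). For Ly6d the nearest genes were Sdc1 (0.98), Nectin1 and Rgs5 (both 0.96), and for Trf Anxa4 (0.99), Trpv4 and Ano1 (both 0.98). Wfdc2 was nearest to Mknk2 (0.98), Fat1 and Coq8a (both 0.97), and Pigr to Lrrc8e (0.95) and Rnf150 (0.94).

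Of 94 other mucosal defence genes found in the tables, 43 had enough UMIs in cluster 3, where 3 were higher and 5 lower in DNp63cKO, with a median of 0.04, beside 9.56% higher and 8.97% lower over all genes, so the counts were near the background. The lower ones were Lypd3 (12.3 and 91.9 CPM, -2.49), Lynx1 (-0.67, -2.23 to 0.23), Ly6e (-0.65, -1.46 to -0.06), Tlr2 and Sgpl1. Tlr2, a receptor for bacterial lipoproteins, was at -0.72, and the sphingosine-phosphate lyase Sgpl1, which acts downstream of ceramidases, at -0.66 (419 and 663 CPM). The higher ones included the iron exporter Slc40a1 (0.96) and the lipopolysaccharide receptor Tlr4 (0.80, with an interval that reaches 0), each on 37 or fewer DNp63cKO UMIs. None of 5 antimicrobial and secreted genes tested was past 1.5-fold in cluster 3.

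In basal-like nuclei 40 of these genes were tested, with 7 higher and 6 lower and a median of 0.03, beside 6.6% higher and 8.02% lower over all genes. The LY6-family genes Ly6a (93.0 and 32.6 CPM, 1.38), Ly6k (0.67, -0.17 to 1.80) and Ly6e (0.63) were higher, so Ly6e went opposite ways in clusters 3 and 11. Lypd3 had 0 UMIs in DNp63cKO, which allows up to 4.89 CPM, against 42 UMIs and 28.5 CPM in control. The ceramide genes Degs1 (1.08), Cers4 (0.83) and Degs2 (0.67) were also higher. Reg3g (-0.83, -2.36 to 0.06), Agr2 (-1.06, -5.06 to 0.16) and Tlr2 (-1.10) were lower. So were Ly96 (-1.11, -4.11 to -0.02) and the ceramidase Asah2 (-1.14), and each of these rests on 8 or fewer DNp63cKO UMIs. Pooled over urothelium-like nuclei, 50 were tested, 7 higher and 2 lower (Lypd3 -2.43, Reg3g -1.05), beside 3.6% and 2.88% over all genes. Their median was 0.24, and the higher ones included Slc40a1 (1.11), Ly6c1 (0.94) and Ly6a (0.90). Reg3g was among the 10 leading genes of cluster 15 (34 and 223 nuclei), whose class is uncertain. The part of that cluster in the pooled Reg3g ratio was not tested.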

How the data were processed

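The deposited matrices hold unnormalized UMI counts, whole numbers for each gene in each nucleus. The submitters' processing notes list mm10, STARsolo, Seurat 4.0.5, R 4.0.5 and STAR 2.7.11a, with no roles. Whether introns were counted, and by strand, is not given in the sources used here. Filters of at least 300 genes and no more than 5% mitochondrial UMIs left 5491 and 8889 nuclei. Scrublet's automatic threshold marked 0.0546% and 0.0112% as doublets and had not worked, so the top 5% of scores were removed (320 and 515 with ties). Counts were scaled to 10000, log-transformed and z-scaled. Leiden clustering (scanpy 1.11.5, resolution 1.0, 2000 variable genes without the members, 30 components, 15 neighbours) gave 17 clusters. Classes and layers were named from listed markers by rules set after the clusters were seen: a urothelium-like cluster lies mostly in the coarse epithelial cluster (resolution 0.1), and a layer needs a score of 0.25 or more and must pass the marker check.

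UMIs were summed per cluster and library. Ratios use CPM + 5. Intervals at 95% are exact Poisson for levels, conditional binomial for ratios and Clopper-Pearson for shares. Genes with 20 or more UMIs over both libraries were tested against 1.5-fold, without p-values. The ratio step was tested on simulated counts. A count of 0 is read as at most 3 UMIs. Named genes are the members, up to 4 other defence genes per group and direction past 1.5-fold, and the 3 genes most like each member. Members and lists were chosen with earlier results of these data known. Of 32589 gene IDs, 32445 were found in GENCODE M21. Some genes that these rules name are not reported here.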

Additional observations from a re-analysis of the deposited data

Results flagged for a closer look

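The layers lay on opposite sides of 0 for 2 members. Clu had a log2 ratio of DNp63cKO over control of -1.48 in superficial-like cluster 3 and 0.52 in basal-like cluster 11. Acer2 had -0.15 in cluster 3 and 0.28 in cluster 11. With 1 library per group the difference between the layers was not tested. Basal-like Acer2 levels in both libraries and the basal-like Clu level in control (150 CPM, against 147 CPM) were near those of fibroblast-like nuclei, and with free RNA subtracted the basal-like ratios were 5.16 for Clu and 4.01 for Acer2. Cluster 4 had -0.79 for Clu and 0.47 for Acer2.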

How the results depend on the processing

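No paired analysis was possible because each group is 1 library. Runs at resolutions 0.5 and 1.5 and with the members kept used the superficial-like and basal-like clusters of their own clustering. Those clusters hold other nuclei than clusters 3 and 11. In superficial-like nuclei, Clu (-1.70 to -1.36) and Ly6d (-3.02 to -2.26) stayed past 1.5-fold under every alternative run. In basal-like nuclei Plet1 did (0.71 to 1.05). All 90 alternative values of superficial-like over basal-like nuclei kept their sign. So did 102 of 108 ratios in superficial-like nuclei, 92 of 99 in basal-like nuclei and 120 of 126 in the pool. In superficial-like nuclei the call was lost for Bpifb1 on thinned counts (-0.26) and with the members kept in the clustering (-0.10). It was lost for Trf at resolution 0.5 (-0.32), and for Pigr in nuclei with Y-linked and no Xist UMIs (-0.08). With free RNA subtracted, 3 members in place of 6 were lower in cluster 3, and 5 in place of 2 were higher in cluster 11, where several levels are close to those of free RNA. Members higher in cluster 11 numbered 1 with 500 genes and 1% mitochondrial UMIs, 1 as a mean over nuclei and 1 thinned, and 1 was lower when thinned. In the pool, members higher numbered 1 with the stricter filter, 2 as a mean over nuclei, 2 thinned, 1 with free RNA subtracted and 1 in nuclei with Y-linked and no Xist UMIs, in place of 0. Members lower numbered 2 in place of 4 as a mean over nuclei. Adding 1 CPM in place of 5 put 2127 in place of 965 genes past the fold in the pool, and a minimum of 5 UMIs put 2560 in place of 1598 past it in cluster 11. Trf turned to 0.024 in the pool without cluster 4, and Psca to -0.16 in cluster 11 in nuclei with Y-linked and no Xist UMIs; the cause was not tested. With cluster 4 added to cluster 3, 6 members were lower and 0 higher, with Bpifb1 at -1.01, Pigr at -1.16 and Psca at -0.03. The coarse cluster, the adding of cluster 4 to cluster 3 and the alternatives for superficial-like and basal-like nuclei were chosen after seeing the data. Depth limits Pigr and clusters 5 and 15.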
